A study of Mus musculus with 2 samples.

Results

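The genes that encode the proteins of the cytosolic and the mitochondrial ribosome were compared between the liver of irradiated and control mice. Members were all genes with a symbol of Rpl, Rps, Mrpl or Mrps followed by a digit, or Rplp0 to Rplp2, without Rps6 kinase genes and pseudogene symbols ending in -ps. This gave 139 of the 22180 genes on the array, 68 of the cytosolic and 71 of the mitochondrial ribosome. The irradiated sample was liver of male C57BL/6 mice, an inbred strain, aged 9 weeks, which had received 6 Gy of gamma rays to the whole body under anaesthesia at 0.81 Gy per minute. They were irradiated at 4 weeks of age and examined 5 weeks later. The control sample was liver of male C57BL/6 mice of the same 9 weeks, listed with no treatment. The labels do not say whether an RNA came from 1 mouse or several, nor whether control mice were anaesthetised. Each group had 1 array, so no difference below has a replicate check, no test was possible and the spread between animals is unknown.

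Ribosomes translate messenger RNA into protein. The cytosolic ribosome has a small 40S and a large 60S subunit, is assembled in the nucleolus and makes nearly all cellular proteins, which in liver include the secreted plasma proteins. The mitochondrial ribosome has a 28S and a 39S subunit and makes the few proteins that mitochondrial DNA encodes, all of them parts of the respiratory chain and ATP synthase. All of its proteins are nevertheless encoded in the nucleus, translated in the cytosol and imported. Messenger RNAs of cytosolic ribosomal proteins typically begin with a run of pyrimidines, the 5′ terminal oligopyrimidine tract, through which mTOR signalling controls their translation. Promoters of mitochondrial ribosomal protein genes often hold sites for the nuclear respiratory factor NRF1, for ETS factors such as GABP and for YY1.

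These features were looked for in the RefSeq promoters of assembly GRCm38.p6, which held an entry for 115 members, 53 cytosolic and 62 mitochondrial. A run of at least 8 pyrimidines that begins with C, between 20 bases before and 50 bases after the annotated start, was present in 71.7% of the cytosolic and 19.4% of the mitochondrial promoters, against 19.9% of all 27025 promoters. The 4 longest such runs lying within 20 bases before and 25 bases after a start are shown because they carry the feature that sets the cytosolic genes' start sites apart in letters, with the run in capitals. The stretches shown lie at chr7:109519175-109519219 on the plus strand (Rpl27a), chr2:26910787-26910831 on the plus strand (Rpl7a), chr2:39005107-39005151 on the minus strand (Rpl35) and chr14:18270962-18271006 on the minus strand (Rpl15).
Rpl27a: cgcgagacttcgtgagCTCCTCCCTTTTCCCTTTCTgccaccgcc
Rpl7a: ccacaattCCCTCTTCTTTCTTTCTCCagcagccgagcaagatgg
Rpl35: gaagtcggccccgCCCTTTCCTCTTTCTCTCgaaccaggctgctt
Rpl15: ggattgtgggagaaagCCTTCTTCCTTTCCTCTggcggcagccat

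Between 250 bases before and 50 bases after the start, on both strands, the NRF1 motif, which reads GCGC, any base and then TGCGC, was found in 17.7% of mitochondrial and 7.55% of cytosolic promoters, against 4.82% of all promoters. The ETS letters CCGGAAG were found in 33.9% of mitochondrial and 39.6% of cytosolic promoters, against 9.14% of all. The YY1 letters AANATGGCG were found in 17.7% of mitochondrial and 9.43% of cytosolic promoters, against 2.50% of all. In the differences described below, mitochondrial genes with the NRF1 letters had a median of 0.00 and those without a median of -0.08. For the ETS letters the mitochondrial medians were -0.05 with and -0.08 without, and for the YY1 letters -0.08 with and -0.07 without. The cytosolic medians were -0.00 with and 0.02 without the NRF1 letters, 0.01 with and 0.03 without the ETS letters, and -0.02 with and 0.02 without the YY1 letters. For the pyrimidine run the cytosolic medians were 0.02 with and 0.01 without, and the mitochondrial ones -0.05 with and -0.08 without. A match is a description of these letters and not a bound site. Among members with a promoter entry, the 4 lowest and the highest mitochondrial and the lowest and the 3 highest cytosolic differences described below belong to 9 genes, whose promoters are shown from 120 bases before to 20 bases after the start, with matches in capitals. Only 4 of the 9 hold a match in this stretch. The mitochondrial ones are Mrps14 at chr1:160195095-160195234 on the plus strand, Mrps16 at chr14:20393615-20393754 on the minus strand, Mrpl27 at chr11:94653671-94653810 on the plus strand, Mrpl3 at chr9:105053148-105053287 on the plus strand and Mrpl28 at chr17:26123383-26123522 on the plus strand. The cytosolic ones are Rps15 at chr10:80292311-80292450 on the plus strand, Rps13 at chr7:116334171-116334310 on the minus strand, Rpl26 at chr11:68901446-68901585 on the plus strand and Rpl32l at chr10:20208319-20208458 on the plus strand.
Mrps14: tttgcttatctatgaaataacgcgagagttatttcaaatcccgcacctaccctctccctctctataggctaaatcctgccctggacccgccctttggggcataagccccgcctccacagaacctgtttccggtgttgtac
Mrps16: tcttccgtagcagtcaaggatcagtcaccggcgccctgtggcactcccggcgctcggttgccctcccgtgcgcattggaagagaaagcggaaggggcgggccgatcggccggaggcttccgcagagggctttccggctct
Mrpl27: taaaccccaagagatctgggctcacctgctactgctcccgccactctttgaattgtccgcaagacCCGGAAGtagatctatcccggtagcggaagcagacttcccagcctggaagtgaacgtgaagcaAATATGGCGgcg
Mrpl3: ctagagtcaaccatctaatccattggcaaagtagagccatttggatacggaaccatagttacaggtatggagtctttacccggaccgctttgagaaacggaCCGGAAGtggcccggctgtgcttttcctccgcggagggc
Mrpl28: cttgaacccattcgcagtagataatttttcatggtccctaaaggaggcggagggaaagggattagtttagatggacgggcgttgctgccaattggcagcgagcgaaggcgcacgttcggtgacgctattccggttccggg
Rps15: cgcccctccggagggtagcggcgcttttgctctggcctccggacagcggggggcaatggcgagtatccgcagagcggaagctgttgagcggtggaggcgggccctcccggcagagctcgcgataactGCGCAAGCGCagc
Rps13: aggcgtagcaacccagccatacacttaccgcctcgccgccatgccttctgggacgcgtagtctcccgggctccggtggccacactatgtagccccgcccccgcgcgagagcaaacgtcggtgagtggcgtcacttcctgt
Rpl26: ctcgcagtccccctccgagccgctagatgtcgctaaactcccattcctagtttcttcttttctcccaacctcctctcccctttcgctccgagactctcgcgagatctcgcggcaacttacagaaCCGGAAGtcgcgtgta
Rpl32l: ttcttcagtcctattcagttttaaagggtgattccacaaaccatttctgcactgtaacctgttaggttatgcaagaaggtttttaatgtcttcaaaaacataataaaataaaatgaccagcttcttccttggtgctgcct

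Values are on the log2 scale from RMA, which subtracts background, brings the 2 arrays to a common distribution and gives 1 value per probe set from its probes. Differences are irradiated minus control. A difference of 1.2-fold or more, 0.26 on the log2 scale, was the size used for counting. Of 10 hepatocyte markers, 9 were at 11.2 or above on both arrays, such as Alb at 13.70 in irradiated and 13.68 in control liver, while Ass1 was at 7.81 and 7.61, and the median difference of the 10 was 0.01.

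The mitochondrial ribosome genes were slightly lower as a group in irradiated liver, and the cytosolic ones were centred on no difference. The median difference was -0.08 over the 71 mitochondrial genes and 0.01 over the 68 cytosolic genes, against 0.00 over all 22180 genes. The medians of the 2 ribosomes were 0.09 apart on the log2 scale. Of the mitochondrial genes, 53 were below 0, 17 above and 1 at 0, so 74.6% were below, against 49.7 percent of all genes. Of the cytosolic genes, 31 were below 0 and 37 above. The middle 50% of the mitochondrial genes lay between -0.16 and -0.00, and that of the cytosolic genes between -0.08 and 0.06. In a bulk sample, fewer cells of a type and less RNA per cell cannot be told apart.

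**Figure D1:**
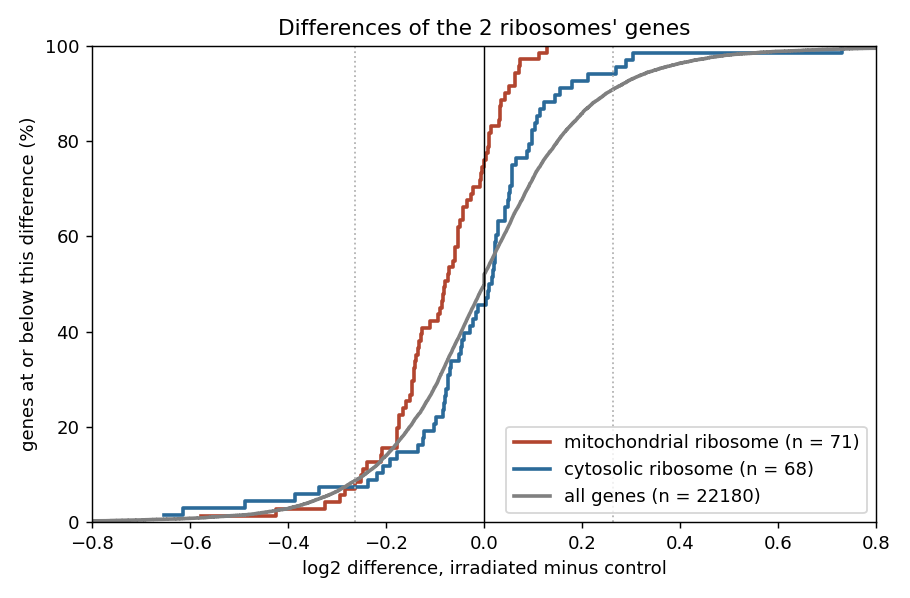
Cumulative share of genes, in percent, against the log2 difference of irradiated minus control, for the 71 mitochondrial and the 68 cytosolic ribosomal protein genes and all 22180 genes. Dotted lines mark 1.2-fold, and the horizontal axis ends at 0.8 on either side. The mitochondrial curve lies left of the other 2 through its middle, with 53 of 71 genes below 0, and meets them again at its lower end.

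The shift was one of many small differences. At least 1.2-fold higher were 0 of 71 mitochondrial genes (0%) and 4 of 68 cytosolic genes (5.88%), against 9.13% of all genes. At least 1.2-fold lower were 5 mitochondrial genes (7.04%) and 5 cytosolic genes (7.35%), against 8.75% of all genes. Over all levels, the members' shares past this size were therefore below the background in both ribosomes. At 1.5-fold, 1 member was higher, against 1.23% of all genes, and 2 were lower, against 0.888%. All 3 were cytosolic symbols, and no member was 2-fold different, where 0.266% of all genes were higher and 0.144% lower.

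The position of the mitochondrial genes did not rest on dim probe sets. Genes were sorted by the mean of their 2 values. Among genes with means of 10 or more, 8 of 10 mitochondrial genes were below 0, with a median of -0.06, and 7 of 25 cytosolic genes were, with a median of 0.05, against 55.2% of the 2005 genes on the array at this level, with a median of -0.01. Between 8 and 10, 32 of 43 mitochondrial genes were below 0 with a median of -0.08, and 7 of 16 cytosolic genes with a median of 0.01, against 53.0% of 4434 genes with a median of -0.01. Between 6.06, the median of all deposited values, and 8, the cytosolic genes too were mostly lower, with 12 of 19 below 0 and a median of -0.07, beside 11 of 16 mitochondrial genes and a median of -0.10. All genes of that range had a median of 0.01. Below 6.06 lay 10 members, 8 cytosolic and 2 mitochondrial, where signal and background are hard to tell apart. All 5 cytosolic genes that were at least 1.2-fold lower had means between 6.06 and 8, where they were 5 of 19, against 458 of the 6833 genes of the array in that range. Over the 13272 genes of the array with means of at least the median, 6.6% were 1.2-fold higher and 6.09% lower, 1.03% were 1.5-fold higher and 0.588% lower, and 50.4% were below 0. Of the 129 members among them, 3 were 1.2-fold higher and 9 lower, and 51 of the 69 mitochondrial genes and 26 of the 60 cytosolic genes were below 0. Of these 60 cytosolic genes, 8.33% were 1.2-fold lower, above the 6.09% of all such genes, and 5% higher. The 69 mitochondrial genes stayed below both shares, with 5.8% lower and 0% higher.

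The small 28S subunit of the mitochondrial ribosome was taken as the 28 genes with Mrps symbols, whatever the place of their proteins. Of these, 22 were below 0, with a median of -0.09 and a range from -0.58 to 0.07. Mrps14, a homologue of bacterial S14, read 5.74 in irradiated and 6.31 in control liver, a difference of -0.58, and was the lowest mitochondrial member. Its irradiated value lay below the array median of 6.06. Mrps16, which in humans is mutated in a mitochondrial disease, read 7.28 in irradiated and 7.71 in control liver, a difference of -0.42. Its other probe set, at 5.89 in irradiated and 6.21 in control liver, was lower as well, with a difference of -0.32. Among the higher 28S members the largest was Mrps11, at 8.99 in irradiated and 8.92 in control liver, a difference of 0.07. Mrps7, at 9.63 and 9.57, differed by 0.06, and Mrps9, at 7.63 and 7.58, by 0.04. No higher 28S member approached 1.2-fold. Mrps36 carries a mitochondrial ribosome symbol but is a component of the 2-oxoglutarate dehydrogenase complex, and it lay below the array median on both arrays, at 5.18 in irradiated and 5.22 in control liver.

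In the large 39S subunit, taken by Mrpl symbols, 31 of 43 genes were below 0, with a median of -0.06 and a range from -0.32 to 0.13. The lowest was Mrpl27, a homologue of bacterial L27, at 6.33 in irradiated and 6.65 in control liver, a difference of -0.32. Mrpl19 read 8.44 in irradiated and 8.73 in control liver, a difference of -0.29. A dimmer probe set annotated with Gcfc2 and Mrpl19 went the opposite way, at 6.39 in irradiated and 6.17 in control liver (0.23). Mrpl3, a core protein of the subunit, read 9.22 in irradiated and 9.51 in control liver, a difference of -0.28. These 3 were the 39S genes past 1.2-fold. Just short of that size were Mrpl9 at 8.43 and 8.69 (-0.26), Mrpl1, at 8.47 and 8.72 (-0.25), and Mrpl47, at 7.89 and 8.14 (-0.25), irradiated before control. A second, dimmer probe set of Mrpl47 differed by -0.19, and a brighter one annotated with Actl6a and Mrpl47 read 9.70 in irradiated and 9.69 in control liver, a difference of 0.02.

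At the upper end stood Mrpl28, at 8.23 in irradiated and 8.10 in control liver, a difference of 0.13. Mrpl12, which besides its place in the ribosome binds the mitochondrial RNA polymerase, read 9.38 in irradiated and 9.27 in control liver, a difference of 0.11. Its other probe set went the opposite way, at 6.74 in irradiated and 7.10 in control liver, a difference of -0.36, so its direction is uncertain. Mrpl57 differed by 0.07, Mrpl2 by 0.06, and Mrps18a, counted here by its symbol with the 28S genes although its protein sits in the large subunit of mammals, by 0.05. Mrpl58, a peptidyl-tRNA hydrolase that rescues stalled ribosomes, read 9.34 in irradiated and 9.36 in control liver, a difference of -0.03.

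**Figure D2:**
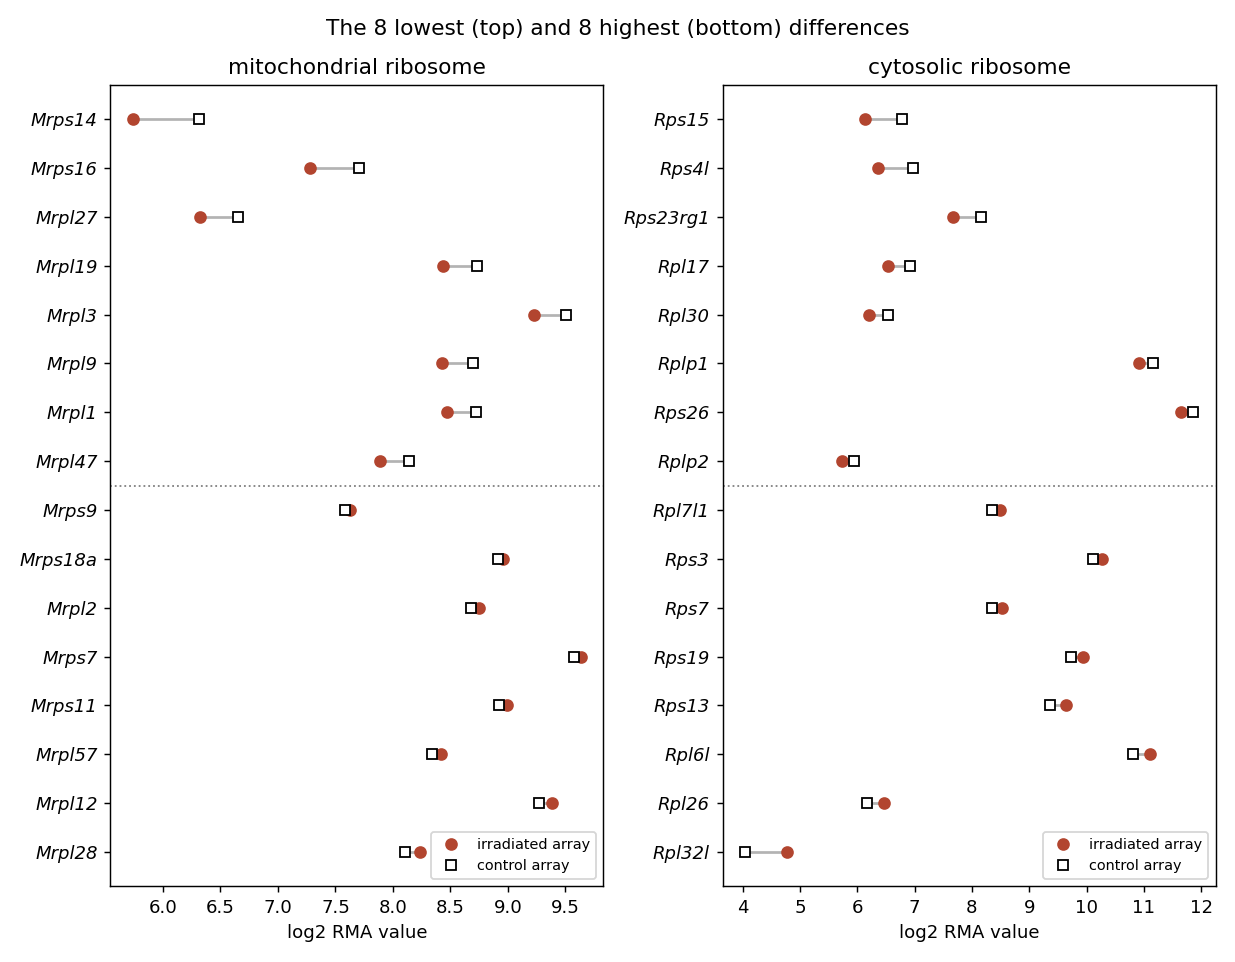
Log2 RMA values of the 8 members with the lowest and the 8 with the highest differences in each ribosome, as measured on the irradiated array (filled circles) and the control array (open squares), 1 array each. The lowest mitochondrial members differ by -0.58 to -0.25 and the highest by 0.04 to 0.13, while the cytosolic extremes run from -0.65 to 0.73.

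Genes of proteins inherited from the bacterial ribosome and of those added in mitochondria had similar median differences. Numbers up to 21 in Mrps and 36 in Mrpl symbols mostly follow bacterial homologues. The 41 genes with such numbers had a median of -0.08, with 29 below 0 (70.7%). All 5 members at least 1.2-fold lower were among them (12.2%, against 8.75% of all genes). The 30 with higher numbers also had a median of -0.08, with 24 below 0 (80%, against 49.7% of all genes) and none past 1.2-fold (0%). This grouping was made after the values were seen. Subunits of the mitochondrial ribosome with other names were represented by 3 genes. Dap3, a GTP-binding 28S protein first described in cell death, read 8.90 in irradiated and 8.97 in control liver (-0.07), and Gadd45gip1, a 39S protein, 8.38 and 8.20 (0.18). Ptcd3, a 28S protein with RNA-binding repeats, read 9.89 in irradiated and 10.73 in control liver, a difference of -0.84, larger than that of any member. A second probe set of Ptcd3 read 9.46 in irradiated and 9.63 in control liver, a difference of -0.17. RefSeq places the small nucleolar RNA gene Snord94 within Ptcd3, and its part in the differences of Ptcd3 was not tested.

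Genes of the proteins that build and serve the mitochondrial ribosome were lower too, and more evenly. Of 30 assembly and translation factors, 29 were below 0 and 1 was at 0, with a median of -0.15. At least 1.2-fold lower were 4 of them (13.3%, against 8.75% of all genes), and 0 were as much higher, against 9.13%. Mrm3, a methyltransferase of the large ribosomal RNA, read 7.31 in irradiated and 7.73 in control liver, a difference of -0.42. Mterf4, which recruits a ribosomal RNA methyltransferase, read 7.08 in irradiated and 7.44 in control liver (-0.36), Mettl17, an assembly factor of the small subunit, 7.52 and 7.81 (-0.29), and Fastkd2, an RNA-binding assembly factor, 7.18 and 7.45 (-0.27). Translation factors of the organelle differed less, with Mtif3, an initiation factor, at -0.23, Gfm1, an elongation factor, at -0.18, and Tufm, its partner that delivers aminoacyl-tRNA, at -0.08. Every factor of the list with a difference other than 0 was thus on the same side.

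Nuclear genes of oxidative phosphorylation, which encode the partners of the proteins this ribosome makes, were placed close to it. Of 89 such genes, 67 were below 0, with a median of -0.07, 0.01 from the median of the mitochondrial ribosome.

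**Figure D3:**
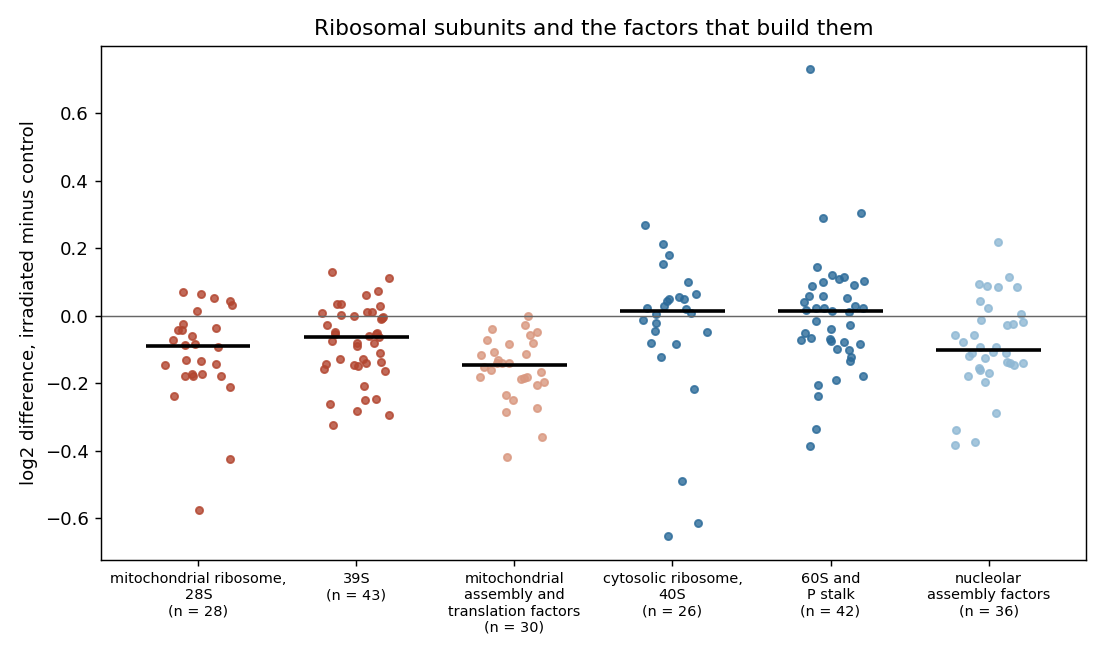
Log2 differences, irradiated minus control, of single genes (points) and their medians (black bars). Shown are the 28S and 39S mitochondrial subunits, assigned by symbol, and 30 mitochondrial assembly and translation factors. Beside them are the 40S subunit, the 60S subunit with the P stalk, and 36 assembly factors of the cytosolic ribosome. The figure labels the last list nucleolar, although it was not limited to nucleolar factors. The mitochondrial medians lie at -0.09, -0.06 and -0.15, and the 40S median at 0.01.

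In the 40S subunit of the cytosolic ribosome, 15 of 26 genes were above 0, with a median of 0.01. Rps15, a protein of the 40S head needed for export of the subunit from the nucleus, read 6.13 in irradiated and 6.78 in control liver. Its difference of -0.65 was the lowest of all members, on a single probe set of low value. Rps4l read 6.35 in irradiated and 6.97 in control liver (-0.61), and RefSeq lists it as a transcribed pseudogene. Rps23rg1, a retroposed copy of Rps23, read 7.67 in irradiated and 8.16 in control liver (-0.49), whereas Rps23 itself read 7.20 and 7.16 (0.04). At the other end Rps13 read 9.64 in irradiated and 9.37 in control liver, a difference of 0.27, and was the only 40S gene at least 1.2-fold higher. Dimmer probe sets that share its symbol with pseudogenes went both ways, 1 with a difference of -0.33 and 1 with a difference of 0.62, and the one shared with Snord14a differed by -0.07. Rps19, which in humans is mutated in Diamond-Blackfan anaemia, read 9.94 in irradiated and 9.73 in control liver (0.21), while a dimmer probe set of it differed by -0.11. Rps26, which contacts the messenger RNA near its exit, read 11.64 in irradiated and 11.86 in control liver (-0.22), while a probe set of it far below the array median differed by 0.22. Rps6, the substrate of the S6 kinases, read 13.37 in irradiated and 13.32 in control liver, a difference of 0.05.

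In the 60S subunit, 21 of 39 genes were above 0, with a median of 0.02. Rpl17, which lies near the exit of the peptide tunnel, read 6.53 in irradiated and 6.91 in control liver (-0.39). Rpl30, an RNA-binding protein of the subunit interface, read 6.20 in irradiated and 6.54 in control liver (-0.34). That value did not hold for brighter probe sets, since one annotated with Rpl30 and Gm12191 read 11.29 in irradiated and 11.33 in control liver, a difference of -0.05. The highest value belonged to Rpl32l, a gene copy of Rpl32, at 4.77 in irradiated and 4.04 in control liver (0.73), below the array median on both. Rpl32 itself read 11.95 in irradiated and 12.02 in control liver (-0.07). Rpl6l, a pseudogene in RefSeq, read 11.11 in irradiated and 10.82 in control liver (0.29), against 5.96 and 5.91 for Rpl6 (0.06). Of 60S genes with high values on both arrays, Rpl41 read 13.11 in irradiated and 13.07 in control liver, Rpl28 13.09 and 13.06, and Rpl21 13.06 and 13.00.

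The acidic P stalk of the 60S subunit, which recruits elongation factors, was uneven. Rplp1 read 10.92 in irradiated and 11.16 in control liver, a difference of -0.24, and a second probe set differed by -0.11. Rplp2 read 5.73 in irradiated and 5.94 in control liver (-0.21), below the array median on both. A brighter probe set annotated with Snora52 and Rplp2 read 10.41 in irradiated and 10.65 in control liver (-0.23). That probe set may read the snoRNA and is counted below as the probe set of Snora52. Rplp0, the stalk base, read 10.41 in irradiated and 10.39 in control liver (0.02), while its dimmer probe set differed by -0.39. None of the 3 genes reached 1.2-fold by its brightest single-symbol probe set.

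Some paralogs stand in for the usual protein in particular tissues. Rpl3l, of heart and skeletal muscle, read 5.27 in irradiated and 5.32 in control liver, and Rpl10l, of testis, 3.47 and 3.57, both below the array median. Rpl22l1, a paralog of Rpl22, was also below it, at 5.38 in irradiated and 5.42 in control liver, while Rpl22 read 6.52 and 6.70 (-0.18). Rpl39l, another testis paralog, read 6.35 in irradiated and 6.42 in control liver (-0.07). Rps27l, a p53 target in human cells, read 9.08 in irradiated and 9.06 in control liver, a difference of 0.02, and Rps27 6.86 and 6.88 (-0.02). A brighter probe set annotated with Rps27 and Rps27rt read 8.64 in irradiated and 9.10 in control liver, a difference of -0.46, so the direction of Rps27 is uncertain. Of members that are no ribosomal subunits, Rpl7l1, a nucleolar 60S assembly protein, differed by 0.14, and Rps19bp1, a regulator of the deacetylase SIRT1, by 0.01.

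Several ribosomal proteins bind Mdm2, the ubiquitin ligase that degrades p53, when ribosome assembly is disturbed. Of 12 such genes 11 were measured, with a median of 0.02 and 7 above 0. At least 1.2-fold higher was 1 (9.09%, against 9.13% of all genes) and as much lower 1 (9.09%, against 8.75%), so both shares were near the background. Rpl5 and Rpl11 form with 5S ribosomal RNA the particle that binds Mdm2. Rpl5 read 6.55 in irradiated and 6.53 in control liver (0.02), and Rpl11 5.61 and 5.81 (-0.19), below the array median. A dimmer probe set annotated with Rpl5 and Rpl5-ps2 read 5.51 in irradiated and 6.19 in control liver, a difference of -0.68. Rpl26, which in human cells also promotes translation of p53 messenger RNA after DNA damage, read 6.47 in irradiated and 6.16 in control liver, a difference of 0.30. A brighter probe set annotated with Rpl26 and Gm15772 read 11.21 in irradiated and 11.16 in control liver, a difference of 0.05. Rps7 differed by 0.18 and Rps3 by 0.15. Of the 4 genes below 0, the one at least 1.2-fold lower was Rps15, described above.

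Genes of factors for making the cytosolic ribosome, in the nucleolus or at later steps, had a lower median difference than the ribosomal protein genes. Of 36 measured assembly factors, 27 were below 0, with a median of -0.10. At least 1.2-fold lower were 4 (11.1%, against 8.75% of all genes), and 0 were as much higher, against 9.13%. Nop2, a methyltransferase of 28S ribosomal RNA, read 9.08 in irradiated and 9.46 in control liver (-0.38), Nolc1, a nucleolar chaperone of small nucleolar ribonucleoproteins, 8.12 and 8.49 (-0.37), Riok2, a kinase of late 40S maturation, 10.27 and 10.61 (-0.34), and Gnl3, a nucleolar GTPase, 8.98 and 9.27 (-0.29). Npm1, the abundant nucleolar chaperone, was the highest, at 10.27 in irradiated and 10.05 in control liver (0.22). For translation in the cytosol, the 64 Eef and Eif factor genes had a median of 0.01, with 34 above 0, like the cytosolic ribosomal protein genes. Fau, whose product yields a 40S protein, read 12.66 in irradiated and 12.68 in control liver (-0.02).

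Many ribosomal protein genes hold genes of small nucleolar RNAs (snoRNAs) in their introns, from which the snoRNAs are cut out after splicing. By RefSeq spans, without regard to strand, 30 ribosomal protein genes hold 58 snoRNA genes, and 21 of the 68 cytosolic members were among these. The 21 had a median of 0.02 and the other 47 a median of 0.01, with 1 of the 21 at least 1.2-fold higher (4.76%, against 9.13% of all genes) and 2 as much lower (9.52%, against 8.75%). The snoRNAs themselves were lower. For 28 of them there were 29 probe sets, with a median of -0.41. Of these 29, 25 were below 0, against 49.7% of all genes. At least 1.2-fold lower were 16, against 8.75% of all genes, and as much higher 2, against 9.13%. At least 1.5-fold lower were 10, against 0.888% of all genes.

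Where both could be read, 14 of 19 snoRNA probe sets had a lower difference than the host gene. The probe set of Snord68 in Rpl13 read 4.33 in irradiated and 6.81 in control liver, a difference of -2.48, while Rpl13 read 9.01 and 9.08 (-0.07). Snord73b read 7.50 in irradiated and 8.60 in control liver (-1.10), and its host Rps3a1 8.96 and 9.01 (-0.05). The brighter probe set of Snora33 read 11.13 in irradiated and 12.23 in control liver (-1.10), and its host Rps12 9.26 and 9.35 (-0.08). The pattern was not uniform, since Snord16a in Rpl4 differed by 0.35 and Snord72 in Rpl37 by 0.56, the second below the array median on both arrays. Some snoRNA probe sets, among them those of Snord68, Snord14a and Snora3, also carry the host's symbol and may read the host's RNA.

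**Figure D4:**
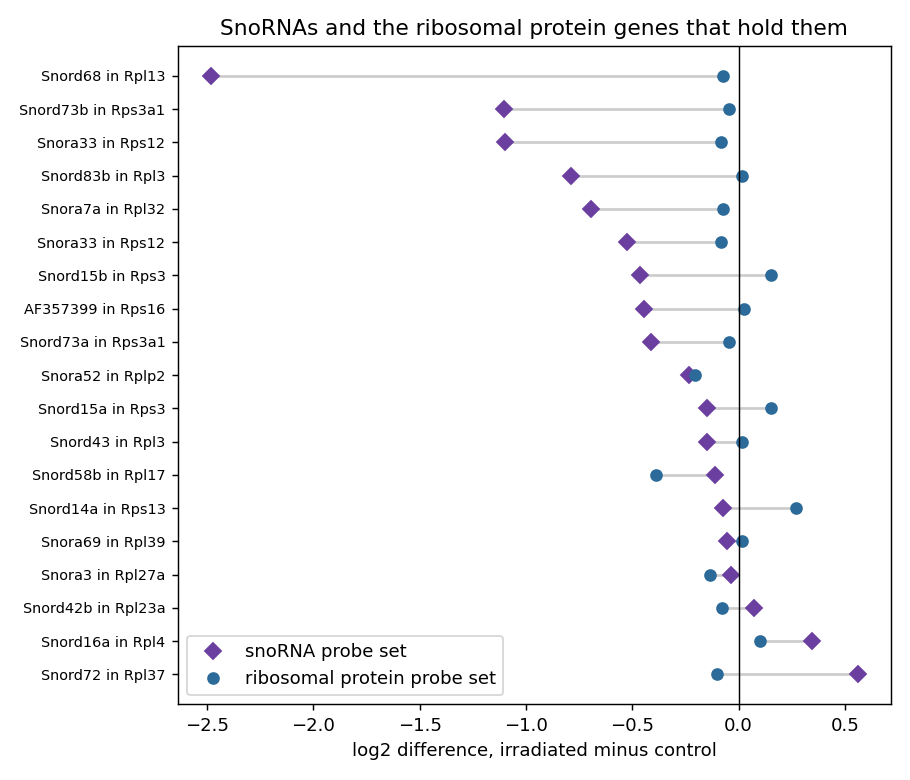
Log2 differences, irradiated minus control, of 19 snoRNA probe sets (diamonds) and of the ribosomal protein genes that hold them (circles), 1 array per group. The host genes lie between -0.39 and 0.27, while snoRNAs reach -2.48 for Snord68.

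Rpl13a, the host of several snoRNAs, was reached only through probe sets with several symbols. The one shared with Flt3l read 8.41 in irradiated and 8.49 in control liver, a difference of -0.08. Those that carry a snoRNA symbol besides Rpl13a differed by -2.10 (Snord34), -1.24 (Snord32a) and -0.29 (Snord33), and Snord35a, with its own symbol, by -2.28. In all, 14 cytosolic and 7 mitochondrial symbols were read only by such probe sets. Among probe sets with several symbols and no snoRNA symbol, 26 of 48 cytosolic ones were below 0 with a median of -0.03, and 8 of 13 mitochondrial ones with a median of -0.03.

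The mouse genome holds many processed copies of ribosomal protein genes, and near-identical sequences can share probes. Of the members, 33 had several single-symbol probe sets, and 24 of these members were cytosolic. In 16 of these 24 the brightest and the dimmest probe set were over 3 log2 units apart, and the largest gap was 8.29, for Rps26. Several probe sets held identical values, such as 6 of the 8 for Rps12. In the cytosolic genes the other probe sets were more often lower than the brightest. The brightest of the 24 cytosolic genes had a median of 0.02, with 15 above 0. The 35 distinct others had a median of -0.08, although only 19 were below 0. Among these others, a probe set of Rpl23a and a probe set of Rps19 repeated the values of the brightest. In 9 mitochondrial genes the brightest probe sets had a median of -0.13 and the others -0.17. By sign these went the other way, with 1 of the 9 brightest above 0 and only 6 of the 9 others below 0. When the dimmest probe set stood for each gene, the cytosolic median became -0.044 and the gap between the ribosomes narrowed to 0.037, with the mitochondrial median at -0.08. The placing of the cytosolic genes at 0 thus depends on the choice of probe set. The mitochondrial median could move little in this way, since 62 of the 71 genes had a single probe set with 1 symbol.

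**Figure D5:**
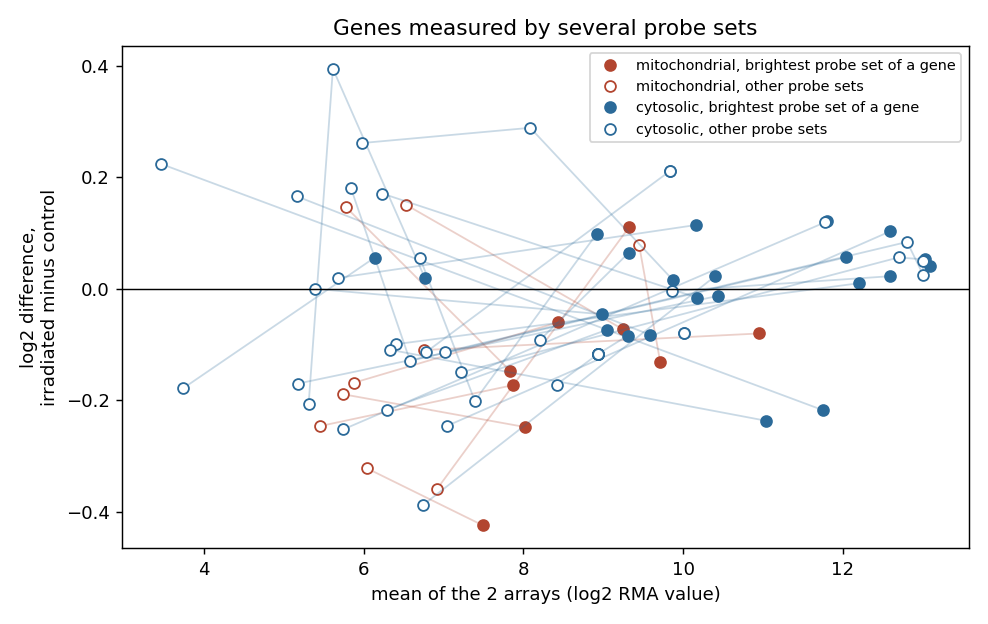
Log2 difference, irradiated minus control, against the mean log2 RMA value of the 2 arrays, for every probe set of the 33 members with several; lines join the probe sets of a gene. Filled circles are the brightest probe set of each gene and open circles the others, which spread more widely around 0 at low values.

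Markers of other cell types moved between the same arrays. All 8 measured bile duct markers were higher, by 0.19 to 2.62, and all 5 smooth muscle markers, by 0.40 to 2.42. Of 4 pancreatic acinar markers, Ctrb1 was higher by 2.65 and the other 3 lay between -0.15 and 0.02. The 6 immune markers ranged from -0.30 to 0.36. Their part in the differences of the ribosomal genes was not tested.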

How the data were processed

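Arrays from Affymetrix, 1 for irradiated and 1 for control liver, were hybridised with material from 300 ng of total RNA, per the labels' protocols. The deposited table held 1 log2 value for each of 41345 probe sets, made by the authors with RMA in Affymetrix Expression Console 1.3.1, per the submitters' processing notes. The log base was read from the range of the values, 1.47 to 13.9 and 1.46 to 13.9. Depth has no meaning here, and the number of arrays limits the precision. RMA gives the arrays nearly the same distribution, so a change in total RNA per cell cannot be seen.

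Genes came from GEO's platform annotation, which can be old: 23521 probe sets had 1 symbol, 1814 several and 16010 none. Each gene was represented by its brightest probe set among those with 1 symbol, by mean over both arrays, with no filter on low values. SnoRNA hosts and promoters came from RefSeq tables of GRCm38.p6, where all 139 members' Entrez identifiers matched, the spans being used without strand. The promoter used was the most upstream entry of a gene.

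Named were the 8 highest and 8 lowest differences in each ribosome, members at least 1.5-fold different, paralogs, the Mdm2-binding list and members whose probe sets differ in sign past 1.2-fold. Others, such as Rps6, Rpl41, Mrpl58 and genes set beside these, were chosen after their values were seen. Members and lists were chosen with earlier results of these data known. The counting was tested on simulated differences. Alternatives changed the filter, scaling (loess span 0.3, repeated quantile normalization), probe set choice, membership, fold and an offset of 32. Python 3.11.15, pandas 2.3.3 and statsmodels 0.14.6 were used.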

Additional observations from a re-analysis of the deposited data

How the results depend on the processing

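The mitochondrial median, or the mean where that replaced it, stayed below 0 in all 15 alternatives that gave either. It lay between -0.09, which was the mean, and -0.07. The cytosolic median or mean lay between -0.04 and 0.03, below 0 in 4 of them, and the gap between the ribosomes between 0.04 and 0.11. Centring on the median difference of all genes, which was 0, could change nothing. Values were taken to have moved when they shifted by 0.05 or more on the log2 scale, or a count by over 1.5 times. With the dimmest probe set per gene the cytosolic median was -0.044 and the gap 0.037. At 1.5-fold, 1 cytosolic member was higher and 2 lower, and 0 mitochondrial members were lower. At 2-fold these counts were 0, 0 and 0. With only genes whose mean reached the 75th percentile of all values, 2 cytosolic members were 1.2-fold higher, 1 cytosolic and 2 mitochondrial members lower. With the offset of 32, 2 cytosolic members were higher. With probe sets of several symbols 8 of 82 cytosolic members were lower, against 8.75% of all genes by single-symbol probe sets. Without those carrying a snoRNA symbol, an alternative added later, 7 of 82 were lower, a count not taken to have moved. Rps27 and Rps27rt shared a probe set (-0.46) and were counted separately. Without the paralogs and also Rpl6l, Rpl32l and Rps23rg1, an alternative chosen after seeing the data, 2 cytosolic members were higher and 3 lower. Fewer genes entered under the stricter filter, and for the other settings the cause was not tested. Of 45 named members, 13 moved with the offset, 7 with the dimmest probe set and 6 with the mean of all probe sets. With the dimmest probe set the difference of Mrpl12 was -0.36 in place of 0.11, that of Rps26 0.22 in place of -0.22 and that of Rps19 -0.11 in place of 0.21. Most members past 1.2-fold had a single probe set with 1 symbol, so the choice among such probe sets could not move them. Brighter probe sets with several symbols differed by only -0.05 for Rpl30 and 0.05 for Rpl26. No paired analysis was possible because there was a single array per group. All were reruns of the same 2 arrays, so they say nothing about the spread between animals.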

Other observations

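Aminoacyl-tRNA synthetases, which load amino acids onto transfer RNAs for both ribosomes, were split by compartment. Of 19 genes for synthetases that serve the cytosol, some of them also mitochondria, 17 were above 0, with a median of 0.11. Cars read 8.62 in irradiated and 8.23 in control liver (0.39), Nars 10.54 and 10.21 (0.33), Tars 9.33 and 9.02 (0.31) and Mars1 9.51 and 9.24 (0.27). Of the 16 genes for mitochondrial synthetases, 14 were below 0, with a median of -0.07. Rars2 read 7.78 in irradiated and 8.11 in control liver (-0.32), Sars2 8.52 and 8.83 (-0.31) and Tars2 7.73 and 8.02 (-0.28). At least 1.2-fold higher were 5 of the 19 and none of the 16, against 9.13% of all genes, and at least 1.2-fold lower were 0 of the 19 and 3 of the 16, against 8.75%. The split by compartment was made after earlier values of these arrays were known and was not tested.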
